A study of Homo sapiens with 6 samples.

Results

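The genes of the CDCA7 and HELLS pair and of the DNA methylation machinery were followed in WT and METTL3-KO samples of HCT116 cells, where METTL3 is the methyltransferase that writes m6A on mRNA. They were taken by symbol from the gene counts: CDCA7, CDCA7L, HELLS, ZBTB24, DNMT1, DNMT3A, DNMT3B, UHRF1, TET2 and TET3, 10 of 56638 symbols, and all 10 passed the count filter. The genes were chosen by earlier results of the METTL3-KO against WT comparison in these same samples, the lower counts of CDCA7 included, so the differences of its members between the groups are a description and carry no test here.

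DNA methylation at CpG sites is copied at each replication by DNMT1, which UHRF1 brings to sites methylated on the parental strand only. DNMT3A and DNMT3B add methyl groups to unmethylated sites, and the TET dioxygenases oxidise them as a first step of removal. HELLS is a SNF2-family ATPase that opens nucleosome-covered DNA to these enzymes, and CDCA7 is the zinc finger protein that recruits HELLS to chromatin and activates it. Inherited loss of DNMT3B, ZBTB24, CDCA7 or HELLS causes ICF syndrome, in which pericentromeric repeats lose methylation, and ZBTB24 is a transcription factor known to drive CDCA7.

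HCT116 is a human colorectal carcinoma line. The RNA-seq series held 3 WT samples (genotype wild type) and 3 METTL3-KO samples at passage 16 to 19, cultured alike in McCoy's medium with serum. Per the study's methods the METTL3-KO cells came from lentiviral CRISPR-Cas9 editing, puromycin selection and limiting dilution to a monoclonal line. In these samples the effect of METTL3 loss and features of that clone therefore cannot be told apart. For CDCA7, the study reports lower mRNA by real-time PCR in the knockout and also with METTL3 siRNAs in HCT116 and SW480 cells. The labels do not say whether the 3 samples of a group were separate cultures, and p-values measure only the spread between these samples. The deposited tables carry other names than the labels (NC for the WT samples and SiM3 for the METTL3-KO samples, with other replicate numbers in WT), and groups and numbers were taken from the labels. The study describes its RNA-seq of HCT116 cells as a comparison of METTL3-knockout with WT cells, as the labels do. SiM3 could still name an siRNA against METTL3, and the sources used here do not explain that name. Whether the sequenced METTL3-KO samples were the edited line or cells with METTL3 knocked down was not checked beyond these statements. METTL3-KO below is the label's name for these samples.

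Each sample held between 20936091 and 30142144 counts on genes. The targeted gene, METTL3, stood at 29.2 to 30.6 CPM in WT and at 6.89 to 7.69 CPM in METTL3-KO samples (log2 fold change -2.04, SE 0.0906), where CPM are counts relative to the TMM-normalised library size. An edited allele can still be transcribed and a knockdown leaves part of the mRNA, so this level does not tell a knockout from a knockdown. All 12 colon epithelial markers were tested, with a summed level of 6620 to 8130 CPM in WT and 9670 to 10600 CPM in METTL3-KO samples. They included KRT8, a keratin of simple epithelia, with a mean log2 CPM of 12.18, whereas CDX2, a homeobox factor of intestinal identity, had a mean log2 CPM of only 2.85. Of 11 markers of other cell types, 7 fell under the count minimum, PTPRC, CD3E, COL3A1, DCN and PECAM1 among them, and the whole list summed to 5.67 to 9.10 CPM. Most of that sum was COL1A1, a collagen gene on the list, with 4.69 to 6.05 CPM in WT and 6.24 to 7.87 CPM in METTL3-KO samples. COL1A1 was named after its values were seen. Replicate 3 stood apart in both groups (chi-square per gene 20.7 and 20.8 against the other WT samples, and 7.61 and 10.1 against the other METTL3-KO samples, where replicates 1 and 2 gave 2.44 and 2.23). The shift of replicate 3 followed transcript length in opposite directions in the 2 groups, and values that rest on it are given below with and without it.

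In WT cells CDCA7 was the most abundant of the 10 mRNAs per length. Levels between genes were compared as CPM per kilobase of joined exons (CPM/kb). CDCA7 had 28.7, 29.5 and 28.8 CPM/kb in WT replicates 1 to 3, and CDCA7L, its paralogue, had 10.7, 10.5 and 12.0 CPM/kb. DNMT1 followed with 7.43 ± 0.447 CPM/kb (mean ± SD, n = 3, as for all means here), TET3 with 6.28 ± 1.51, UHRF1 with 5.22 ± 0.216 and HELLS with 3.32 ± 0.178. DNMT3B (2.20 ± 0.279), DNMT3A (2.15 ± 0.149), ZBTB24 (1.97 ± 0.185) and TET2 (1.41 ± 0.489) were the lowest. The WT ranges of DNMT1 and TET3 overlapped, as did those of TET3 and UHRF1, and each of the 4 lowest overlapped with its neighbour in this order. With the longest transcript as the length, DNMT1 (16.0 ± 0.961 CPM/kb) came before CDCA7L (14.8 ± 1.08), with overlapping ranges, and HELLS moved up to 8.51 ± 0.456, since its joined exons (14231 nt) are longer than its longest transcript (5558 nt). CDCA7 remained first on this scale, at 34.6 ± 0.521 CPM/kb. Ratios and shares between genes below are per kilobase of joined exons, and their size depends on that choice of length. For a ratio of a pair of genes, the choice scales all samples alike.

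**Figure D1:**
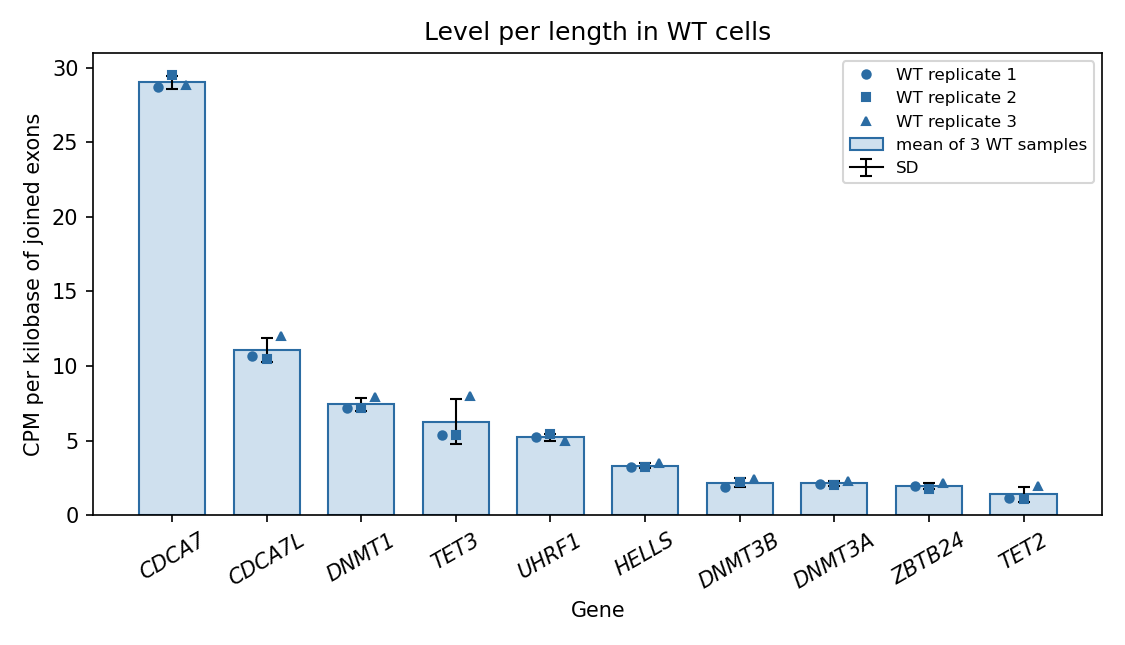
Level of each gene in WT cells in CPM per kilobase of joined exons. Bars are means of 3 WT samples, error bars the SD and points the samples. CDCA7 lies at 29.0 CPM/kb, and the 4 genes at the right lie between 1.41 and 2.20.

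In METTL3-KO cells, 5 of the 10 genes were called lower and 0 were called higher by edgeR's quasi-likelihood test (adjusted p under 0.05) across all 22452 tested genes, where 13.2% of genes were called lower and 13.3% higher. All METTL3-KO values were under all WT values in 7 members, an order seen in 20.7% of all tested genes (and the reverse order in 20.2%). No member was higher at an unadjusted p under 0.05 or with DESeq2 either, and DESeq2 called 5 lower. The genes called lower were CDCA7, HELLS, DNMT1, DNMT3A and DNMT3B. The median log2 fold change was -0.25 over the 10 members and -0.02 over all tested genes, and 9 members had a negative value against 51.8% of all genes. Since the set was drawn up on this contrast, nothing is read from these counts. In bulk RNA, fewer cells that express a gene and less of its RNA per cell cannot be told apart.

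**Figure D2:**
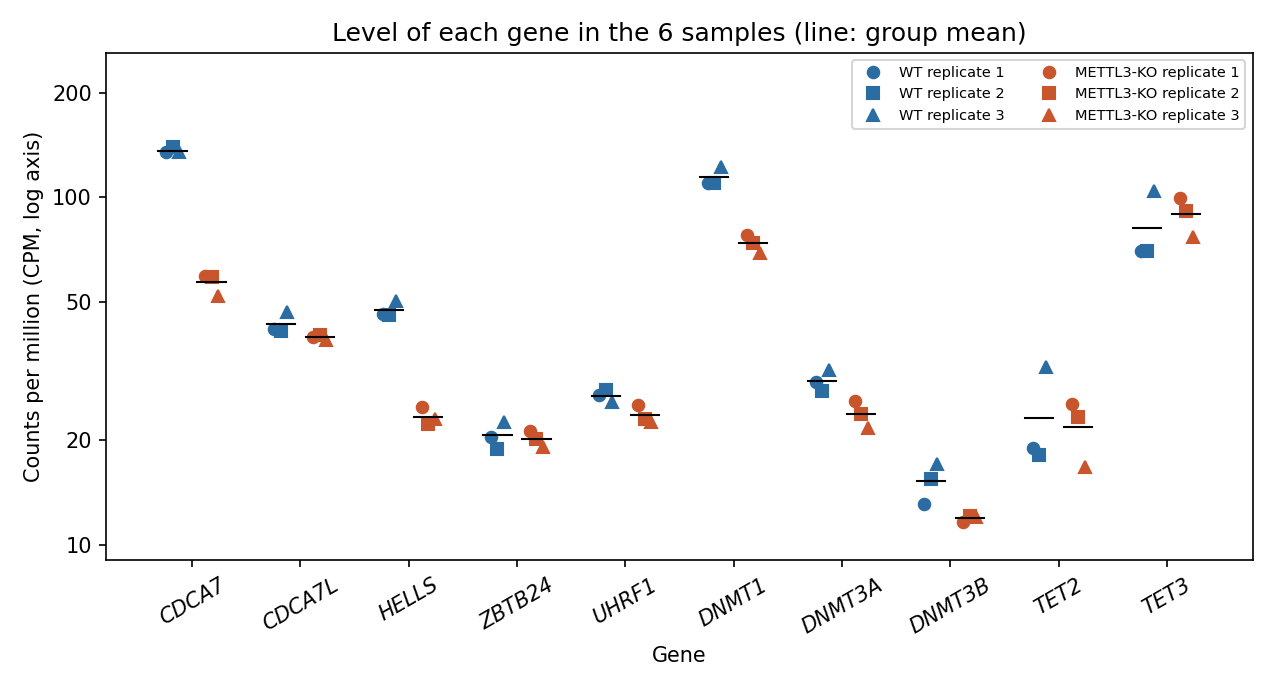
CPM of each gene in the 6 samples, on a log axis. Blue symbols are WT and orange symbols METTL3-KO replicates, and black lines are group means. The groups of CDCA7 (135 to 139 against 52.0 to 59.3 CPM) and HELLS (45.7 to 50.2 against 22.2 to 24.8 CPM) lie far apart, and those of ZBTB24, TET2 and TET3 overlap.

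CDCA7 fell most. It is encoded on chromosome 2 from 174219548 to 174233725 (GRCh37, plus strand) and its annotated exons overlap no other gene. The WT samples had 3703, 3131 and 2880 counts and the METTL3-KO samples 1789, 1297 and 1224 counts, which is 135, 139 and 135 CPM against 59.3, 59.0 and 52.0 CPM. The WT samples were close to each other and all METTL3-KO samples lay well under them. The means were 136 ± 2.05 and 56.8 ± 4.12 CPM, so that the level decreased by 58.3% (log2 fold change -1.26, SE 0.0764). Among the 10336 genes whose mean log2 CPM was 3 or more, 22 (0.213%) had a lower log2 fold change. With any single sample left out the value stayed between -1.29 and -1.20, and the gene was called lower in all 15 fits run.

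HELLS, the remodeller that CDCA7 activates, lies on chromosome 10 (96305086 to 96373662, plus strand). The WT samples had 46.0, 45.7 and 50.2 CPM and the METTL3-KO samples 24.8, 22.2 and 23.0 CPM. From a mean of 47.3 ± 2.54 to one of 23.3 ± 1.35 CPM the level decreased by 50.6% (log2 fold change -1.02, SE 0.0827), and HELLS was also called lower in all 15 fits. Of the compared genes, 83 (0.803%) had a lower log2 fold change. The ratio of CDCA7 to HELLS per length averaged 8.74 ± 0.534 in WT cells and 7.39 ± 0.625 in METTL3-KO cells, and the lowest WT sample (8.15) was only slightly above the highest METTL3-KO sample (8.07). In the GENCODE annotation used here, a lncRNA on the same strand shares 3.08% of the exon bases of HELLS, and whether the authors' annotation held it is not given in the sources used here.

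The promoters of both genes carry letters of the E2F site, the element through which E2F factors switch on genes for S phase, and so do those of DNMT1 and UHRF1. The windows run from 250 bases before to 50 after the transcription start (RefSeq, GRCh38.p14, which is not the build of the counts). The E2F words searched on both strands were TTTCCCGC, TTTGGCGC, TTTCGCGC and TTTGCCGC, and 3.31% of 35116 such windows hold at least 1 of them. They are shown because they are the members whose windows hold a word, with the word in capitals. CDCA7 is at chr2:173354622-173354921 (plus strand), HELLS at chr10:94545538-94545837 (plus), DNMT1 at chr19:10194904-10195203 (minus) and UHRF1 at chr19:4909251-4909550 (plus).
CDCA7: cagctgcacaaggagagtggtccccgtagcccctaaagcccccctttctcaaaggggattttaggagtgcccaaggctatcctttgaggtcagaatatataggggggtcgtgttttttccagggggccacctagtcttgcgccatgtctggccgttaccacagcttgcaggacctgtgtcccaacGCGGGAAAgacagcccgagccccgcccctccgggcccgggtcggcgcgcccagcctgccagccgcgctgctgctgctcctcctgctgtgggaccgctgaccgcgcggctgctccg
HELLS: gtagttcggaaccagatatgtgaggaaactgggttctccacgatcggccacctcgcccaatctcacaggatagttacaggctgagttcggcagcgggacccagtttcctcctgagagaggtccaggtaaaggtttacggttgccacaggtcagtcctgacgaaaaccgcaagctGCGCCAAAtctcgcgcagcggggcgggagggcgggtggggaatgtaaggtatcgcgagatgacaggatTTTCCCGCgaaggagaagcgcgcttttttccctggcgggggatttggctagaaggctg
DNMT1: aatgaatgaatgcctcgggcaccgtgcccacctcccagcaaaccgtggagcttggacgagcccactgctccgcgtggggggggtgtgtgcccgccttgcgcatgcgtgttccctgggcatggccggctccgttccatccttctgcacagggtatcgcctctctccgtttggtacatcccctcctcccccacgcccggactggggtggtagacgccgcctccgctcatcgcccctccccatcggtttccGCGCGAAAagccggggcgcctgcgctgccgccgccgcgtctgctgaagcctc
UHRF1: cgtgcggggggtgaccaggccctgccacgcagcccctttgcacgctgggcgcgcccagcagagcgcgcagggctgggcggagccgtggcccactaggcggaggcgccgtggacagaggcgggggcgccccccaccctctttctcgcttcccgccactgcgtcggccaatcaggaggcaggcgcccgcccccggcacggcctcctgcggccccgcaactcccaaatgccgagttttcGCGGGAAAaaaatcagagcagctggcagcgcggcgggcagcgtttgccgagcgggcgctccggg

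The CDCA7 word starts 65 bases before the transcription start, and HELLS holds a word 76 and another 8 bases before it. The DNMT1 word starts 2 bases before the start and runs past it, and that of UHRF1 starts 14 bases before. UHRF1 has 3 windows in this table, of which a further window holds a word 160 bases before its start. In all, 4 of the 10 members held an E2F word, in 5 of their 19 windows. Of 20 genes on a list of E2F-controlled S-phase genes that had a window, 12 held a word, so the exact words miss many genes of this kind. No word was found in the windows of CDCA7L, ZBTB24, DNMT3A, DNMT3B, TET2 and TET3. The other words searched are more common over all windows. CACGTG, the E-box, was found in 4 members and 5 of the 19 windows, against 7.26% of all windows. Windows of a gene can overlap, and overlapping windows of DNMT3A hold the same E-box, 75 and 127 bases before their starts. That copy is counted in both windows. CCAAT was found in 4 members and 5 windows, against 34.6%. TTTGAA or TTTAAA, the letters of the cell cycle homology region, were found in 2 members and 2 windows, against 24.0%. The only DNMT3B window has 3 CpG dinucleotides, against a median of 14 over all windows, and that of CDCA7 has 20. Whether this DNMT3B window lies at the first exon of the gene was not checked, since windows and gene positions are on different builds. Its CpG count and its lack of an E2F word therefore hold for that window only.

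Neither CDCA7L nor ZBTB24 was called. CDCA7L, on chromosome 7 (21940517 to 21985521, minus strand), had 41.7, 41.1 and 46.8 CPM in the WT and 39.7, 40.0 and 38.9 CPM in the METTL3-KO samples. The groups did not overlap, but the log2 fold change of -0.13 (SE 0.0792) was not called in any fit and was -0.06 without WT replicate 3. The ratio of CDCA7 to CDCA7L per length was 2.68, 2.80 and 2.39 in WT replicates 1 to 3 and 1.24, 1.22 and 1.11 in METTL3-KO replicates 1 to 3. CDCA7L shares 21.4% of its exon bases with DNAH11 on the opposite strand, and the library kit did not mark strand, so its level is the less certain of the pair. ZBTB24, on chromosome 6 (109781835 to 109804442, minus strand), had 20.4, 18.8 and 22.6 CPM in WT and 21.2, 20.1 and 19.1 CPM in METTL3-KO samples. These groups overlapped (log2 fold change -0.03, SE 0.0947), and its sign turned to 0.04 without WT replicate 3 and to 0 without METTL3-KO replicate 3.

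**Figure D3:**
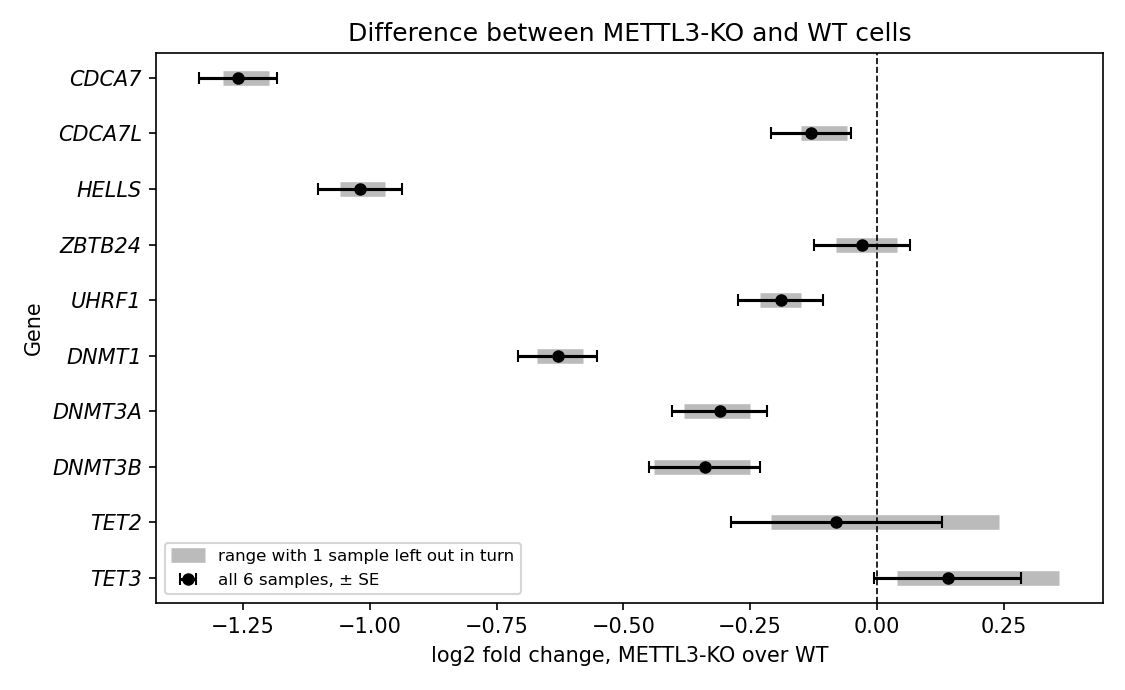
Log2 fold change of METTL3-KO over WT for each gene. Points with bars are the fit of all 6 samples ± SE, and grey bands span the values with 1 sample left out in turn. CDCA7 (-1.26), HELLS (-1.02) and DNMT1 (-0.63) stay apart from 0, and the bands of ZBTB24 and TET2 cross it.

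Of the genes that copy methylation, DNMT1 was called lower and UHRF1 was not. DNMT1, on chromosome 19 (10244018 to 10341962, minus strand), had 110, 110 and 122 CPM in the WT and 77.8, 73.9 and 69.2 CPM in the METTL3-KO samples, with no overlap. From 114 ± 6.88 to 73.6 ± 4.27 CPM the level decreased by 35.5% (log2 fold change -0.63, SE 0.0778), and the gene was called lower in all 15 fits. UHRF1, on the same chromosome (4903092 to 4962165, plus strand), had 26.9, 27.9 and 25.7 CPM against 25.2, 23.0 and 22.5 CPM. Its groups lay close without overlapping, and the log2 fold change of -0.19 (SE 0.0842) was not called. It was called lower in 2 of the 15 fits, at -0.18 with replicate 3 left out of both groups and at -0.22 after correction for transcript length and GC content. The ratio of DNMT1 to UHRF1 per length averaged 1.43 ± 0.143 in WT cells and 1.04 ± 0.0267 in METTL3-KO cells, and the lowest WT sample (1.32) lay above the highest METTL3-KO sample (1.08).

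The de novo enzymes had smaller differences than DNMT1, and their calls depended on single samples. DNMT3A, on chromosome 2 (25450724 to 25565459, minus strand), had 29.4, 27.6 and 31.7 CPM in the WT and 25.9, 23.8 and 21.6 CPM in the METTL3-KO samples. The level decreased by 19.5% (log2 fold change -0.31, SE 0.0940). It was no longer called without WT replicate 1 (-0.32), METTL3-KO replicate 2 (-0.31) or METTL3-KO replicate 3 (-0.25), and it was -0.20, called lower, with replicate 3 left out of both groups. DNMT3B, on chromosome 20 (31350191 to 31397165, plus strand), had 13.1, 15.4 and 17.0 CPM against 11.6, 12.1 and 12.0 CPM. The WT samples of DNMT3B spread more widely (SD 1.92) than the METTL3-KO samples (SD 0.283). The level decreased by 21.1% (log2 fold change -0.34, SE 0.109). With 1 sample left out it was called only without WT replicate 1 (-0.44), and not without WT replicate 2 (-0.32), WT replicate 3 (-0.25), METTL3-KO replicate 1 (-0.32), METTL3-KO replicate 2 (-0.35) or METTL3-KO replicate 3 (-0.35). Of the summed DNMT mRNA per length, DNMT1 made up 62.5% to 64.0% in the 3 WT samples and 57.6% to 58.6% in the 3 METTL3-KO samples, without overlap. DNMT3A made up 17.6% to 19.0% in WT and more in each METTL3-KO sample, up to 21.8%, and DNMT3B 17.0% to 19.6% in WT and 19.6% to 22.4% in METTL3-KO samples. The ratio of DNMT3A to DNMT3B averaged 0.982 ± 0.116 in WT cells and 0.996 ± 0.111 in METTL3-KO cells, a difference within the spread between samples.

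The values of the TET genes depended on replicate 3. TET2, on chromosome 4 (106067032 to 106200973, plus strand), had 18.9, 18.1 and 32.4 CPM in the WT and 25.4, 23.3 and 16.7 CPM in the METTL3-KO samples. TET3, on chromosome 2 (74212037 to 74335303, plus strand), had 70.0, 69.9 and 104 CPM against 99.5, 91.4 and 77.0 CPM. In both genes WT replicate 3 was the highest of its group and METTL3-KO replicate 3 the lowest of its group, and the groups overlapped. Over all 6 samples the log2 fold changes were -0.08 (SE 0.208) for TET2 and 0.14 (SE 0.145) for TET3, neither of them called. Without WT replicate 3 they were 0.24 and 0.36, and without METTL3-KO replicate 3 they were 0.08 and 0.24. Of these 4 values the 0.36 of TET3 was called higher. With replicate 3 left out of both groups they were 0.40 (SE 0.0792) and 0.45 (SE 0.05), both called higher. After correction for transcript length and GC content over all 6 samples they were -0.10 and 0.08, not called. The direction of TET2 thus depended on which samples entered the fit. Whichever fit was used, neither TET gene was called lower. Per length, TET3 was 4.57 ± 0.438 times TET2 in WT samples and 5.29 ± 0.513 times TET2 in METTL3-KO samples. Replicates 1 and 2 gave 4.72 and 4.91 in WT and 4.99 and 5.00 in METTL3-KO samples. Replicate 3 gave 4.07 in WT and 5.88 in METTL3-KO samples, so most of the difference between the means lay in replicate 3.

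Both TET genes have long transcripts, of 10166 and 12060 nt. Of genes whose mean log2 CPM was over 3, the 474 with a longest transcript of at least 10000 nt had a median of 0.37 (log2) in WT replicate 3 over WT replicates 1 and 2, and of -0.22 in METTL3-KO replicate 3 over its group. The 1468 genes under 2000 nt had medians of -0.26 and 0.17. TET2 deviated by 0.81 and -0.55, and TET3 by 0.57 and -0.31. The deviations of CDCA7 (-0.02 and -0.19) and HELLS (0.13 and -0.03) were small beside their differences between the groups. The length correction moved the corrected CPM of TET2 to 20.6, 19.8 and 28.2 in WT and 23.7, 22.4 and 18.0 in METTL3-KO samples, so it removed the deviation of replicate 3 in part. It left CDCA7 at 132 to 139 and 52.6 to 59.6 CPM.

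**Figure D4:**
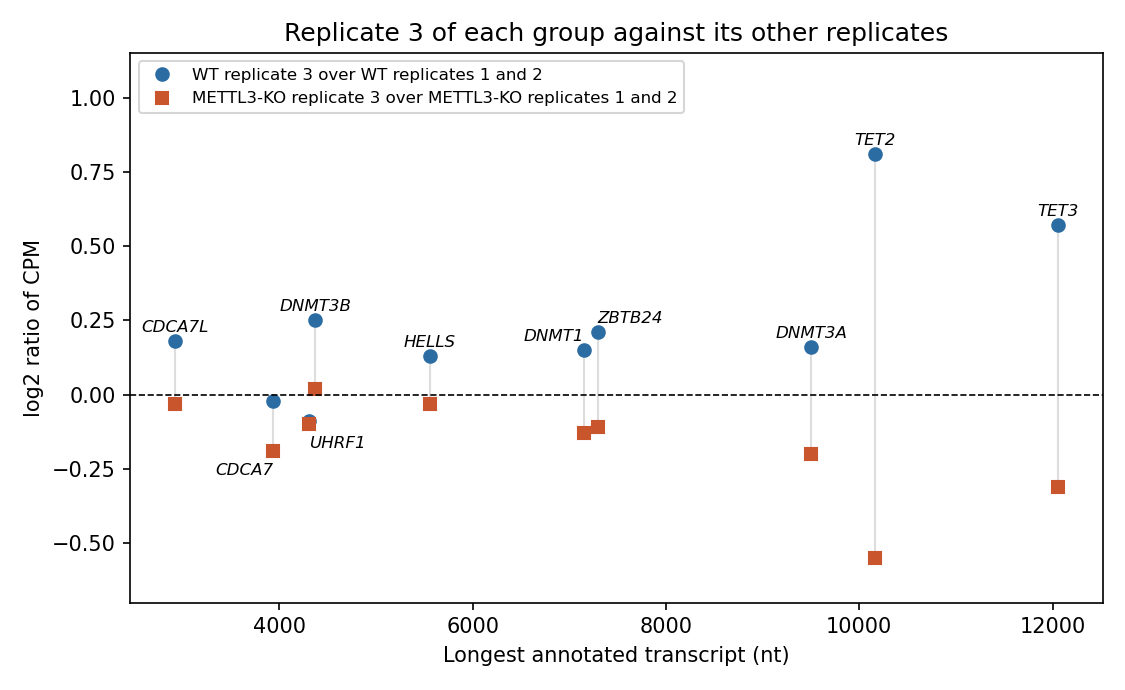
Log2 ratio of the CPM of replicate 3 to the mean of replicates 1 and 2 of its group (y axis) against the length of the longest annotated transcript in nt (x axis). Blue circles are WT and orange squares METTL3-KO. TET2 (0.81 and -0.55) and TET3 (0.57 and -0.31), the longest, deviate most.

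The genes of 9 further lists placed the members among the wider methylation pathway. The lists held 172 different genes and none of the members, 130 of them were tested, and 46 fell and 14 rose (adjusted p under 0.05 by edgeR's quasi-likelihood test over all tested genes, as for the adjusted p-values below). Of all tested genes 13.2% fell and 13.3% rose, and these shares are also the background for the count of each list below. The share of listed genes that rose did not exceed that background, and the share that fell did. Of the 46 listed genes that fell, 19 were on the list of E2F-controlled S-phase genes. All lists were written with earlier results of these data known. Of the other methylation and demethylation enzymes, 10 of 12 were tested, 4 were lower and 2 higher, with a median log2 fold change of -0.23 (-0.08 without METTL3-KO replicate 1). DNMT3L, the inactive cofactor of the de novo enzymes, had 0 counts. TDG, the glycosylase that excises oxidised methylcytosine, rose from 33.9 ± 0.479 to 54.8 ± 3.68 CPM (log2 fold change 0.70, SE 0.0784, adjusted p = 6.26e-05), with 33.5, 34.4 and 33.8 CPM in WT and 58.6, 51.2 and 54.7 CPM in METTL3-KO samples. TRDMT1, a tRNA methyltransferase of the DNMT family, fell (-0.47, SE 0.112, adjusted p = 0.00838), and so did APOBEC3B, a cytidine deaminase (-0.71, SE 0.139, adjusted p = 0.00257).

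The isocitrate dehydrogenases make the 2-oxoglutarate that TET enzymes need. IDH1, the cytosolic enzyme, rose (0.31, SE 0.0680, adjusted p = 0.00563), and IDH2, the mitochondrial enzyme, fell (-0.43, SE 0.0774, adjusted p = 0.00153). D2HGDH, which clears the TET inhibitor D-2-hydroxyglutarate, had a log2 fold change of -0.05 (adjusted p = 0.681). TET1 was barely expressed, at 0.199 to 0.487 CPM over the 6 samples (log2 fold change -0.40, SE 0.440, adjusted p = 0.545). UHRF2, the paralogue of UHRF1, had 0.15 (SE 0.0938, adjusted p = 0.272) and SMUG1, a uracil glycosylase, 0.17 (SE 0.0895, adjusted p = 0.184). UHRF2 passed without WT replicate 3 (0.23, adjusted p = 0.0449) and with replicate 3 left out of both groups (0.29, adjusted p = 4.61e-05), and SMUG1 with the length and GC correction (0.18, adjusted p = 0.0492).

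Of 17 partners of maintenance methylation, 8 were lower and 1 higher, with a median of -0.20. Those that fell most were CBX1, an HP1 protein that binds methylated histone H3 (147 ± 7.15 to 76.1 ± 2.49 CPM, log2 fold change -0.95, SE 0.0721, adjusted p = 4.12e-06), LIG1, the ligase that joins Okazaki fragments and binds UHRF1 (-0.85, SE 0.0724, adjusted p = 8.72e-06), and PCLAF, the PCNA-associated factor that also recruits DNMT1 (-0.85, SE 0.0891, adjusted p = 3.83e-05). PCLAF is named KIAA0101 in the counts. The 1 member that rose was HDAC1, a histone deacetylase that binds DNMT1 (0.46, SE 0.0668, adjusted p = 0.000382), which lies outside the rule for named genes and was chosen after its values were seen.

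In both lists of readers of CpG sites, the share of tested genes called higher was above the 13.3% of all tested genes. The share called lower was under the 13.2% of all tested genes. Both lists are short and were written with earlier results of these data known, so their counts are a description. Most of these calls depended on the samples or the fit. Of 11 genes listed as methyl-CpG readers, 10 were tested, and 1, MBD4 (-0.25, adjusted p = 0.0206), was lower and 3 were higher (median 0.18). The list takes MBD1 to MBD6 by family, whether or not each protein binds methylated CpG. The higher genes were MBD5 (0.42, adjusted p = 0.0107), ZBTB4 (0.34, adjusted p = 0.00613) and MBD2 (0.29, adjusted p = 0.0451). MBD2 passed only without WT replicate 3 among the fits with 1 sample left out, and MBD5 did not pass without WT replicate 1 (0.32) or METTL3-KO replicate 1 (0.39). MBD2 had 0.33 without WT replicate 1, METTL3-KO replicate 1 or METTL3-KO replicate 2, 0.31 without WT replicate 2 and 0.20 without METTL3-KO replicate 3, and with replicate 3 left out of both groups it had 0.13 (adjusted p = 0.0834). Of 8 CXXC-domain proteins, whose zinc finger binds unmethylated CpG, 3 were higher and 0 lower (4 and 0 at an unadjusted p under 0.05, 2 and 0 with DESeq2), with a median of 0.08, which was 0.18 without WT replicate 3 and 0.22 with replicate 3 left out of both groups. KDM2A, a histone demethylase, rose from 152 ± 15.2 to 220 ± 13.1 CPM (0.53, SE 0.0854, adjusted p = 0.000685). KDM2B (0.28, adjusted p = 0.0439) and CXXC4 (0.45, adjusted p = 0.0478) passed more narrowly. KDM2B did not pass without WT replicates 1 (0.25) or 2 (0.33) or METTL3-KO replicates 1 (0.23) or 2 (0.28), and CXXC4 did not pass without WT replicates 1 (0.45) or 2 (0.38) or METTL3-KO replicates 1 (0.49), 2 (0.43) or 3 (0.43).

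HELLS belongs to the SNF2 family of ATPases, whose other members were tested in the same fit. Of 28 other SNF2-family ATPases, 6 were lower and 0 higher (3 higher at an unadjusted p under 0.05 and 0 with DESeq2), and their median log2 fold change was -0.02, as was that of all genes. This median was 0.09 without WT replicate 3, 0.02 without METTL3-KO replicate 3 and 0.10 with replicate 3 left out of both groups. TTF2, a transcription terminator, fell most among those called (47.6 ± 7.22 to 29.3 ± 2.36 CPM, log2 fold change -0.70, SE 0.110, adjusted p = 0.000602), followed by the recombination factors RAD54B (-0.65, SE 0.145, adjusted p = 0.00588) and RAD54L (-0.56, SE 0.0965, adjusted p = 0.00108).

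Of 26 E2F-controlled S-phase genes, 19 were lower and 0 higher (20 and 0 at an unadjusted p under 0.05, 19 and 0 with DESeq2), beside 13.2% lower and 13.3% higher over all tested genes. The median log2 fold change of the list was -0.48, and 25 of its genes had a negative value. It was written with earlier results of these data known, so its counts are a description. The 7 listed genes that did not pass were CCNE1, CCNE2, CDC6, E2F1, E2F2, SLBP and FEN1, with log2 fold changes from -0.36 (E2F2) to 0.17 (CCNE1). The summed level of the 26 genes was 1810 to 1950 CPM in the WT and 1330 to 1390 CPM in the METTL3-KO samples. Their part in the lower levels of CDCA7, HELLS and DNMT1 was not tested. TYMS, the thymidylate synthase, fell most (26.0 ± 1.90 to 12.8 ± 1.19 CPM, -1.02, SE 0.1, adjusted p = 2.35e-05), and both subunits of ribonucleotide reductase, RRM1 (-0.71, SE 0.0778, adjusted p = 5.20e-05) and RRM2 (-0.71, SE 0.0752, adjusted p = 4.13e-05), fell alike.

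Part of the colon epithelial markers differed between the groups as well, 5 of 12 called higher and 1 lower, beside 13.3% higher and 13.2% lower over all tested genes. The 6 not called were CDX2, CLDN7, EPCAM, CLDN4, ELF3 and KRT18, with log2 fold changes from -0.19 (CDX2) to 0.18 (KRT18). KRT20, a keratin of differentiated colon cells, had 252, 286 and 218 CPM in the WT and 733, 706 and 700 CPM in the METTL3-KO samples (log2 fold change 1.5, SE 0.0928, adjusted p = 1.16e-06). KRT19 (0.82, adjusted p = 0.000134), VIL1 (0.62, adjusted p = 3.91e-05), KRT8 (0.36, adjusted p = 0.0143) and CDH1 (0.23, adjusted p = 0.0396) rose too. LGR5, a marker of intestinal stem cells, fell from 8.98 ± 0.640 to 3.40 ± 0.536 CPM (-1.39, SE 0.139, adjusted p = 2.72e-05). These markers and the S-phase genes that did not pass lie outside the rule for named genes and were chosen after their values were seen, and their part in the lower levels of the members was not tested.

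Of 8 genes of the cycle that makes and recycles S-adenosylmethionine, the methyl donor of all DNMTs, 3 were lower and 2 higher (median -0.11, and -0.06 with replicate 3 left out of both groups). MAT2A and MAT2B, the catalytic and the regulatory subunit of the enzyme that makes it, had log2 fold changes of -0.02 (adjusted p = 0.886) and -0.09 (adjusted p = 0.359), and were chosen after their values were seen. AHCY, which removes the inhibitory product S-adenosylhomocysteine, fell from 367 ± 17.9 to 180 ± 9.24 CPM (log2 fold change -1.03, SE 0.0726, adjusted p = 2.80e-06). Its values were 377, 378 and 347 CPM in the WT and 180, 171 and 190 CPM in the METTL3-KO samples, with no overlap. AHCYL2, a relative of AHCY without its known activity, rose (0.46, SE 0.0864, adjusted p = 0.00209).

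**Figure D5:**
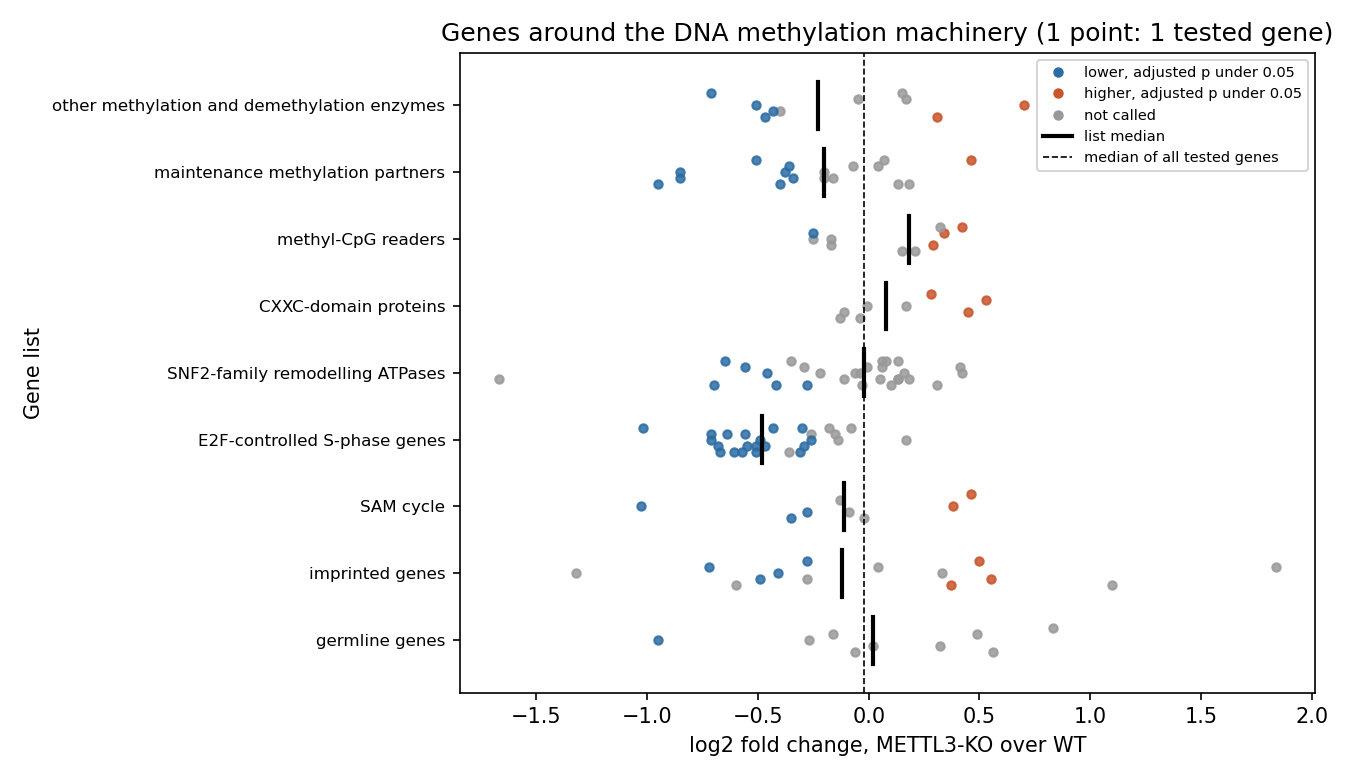
Log2 fold change of METTL3-KO over WT (x axis) for each tested gene of the 9 lists (y axis). Blue and orange points passed an adjusted p under 0.05 in edgeR's test, grey points did not, thick lines are list medians and the dashed line is the median of all tested genes (-0.02). The median of the E2F-controlled S-phase genes lies at -0.48, and those of the methyl-CpG readers and CXXC-domain proteins at 0.18 and 0.08.

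For each member, the genes with the most similar pattern over the 6 samples were sought by Pearson correlation of log2 CPM among 10335 genes with a mean of 3 or more. All points share the 6 libraries and the 2 groups, so the correlations are a description. For CDCA7 they were PLCG1 (r = 0.9993), DBF4B (0.9992), an activator of the CDC7 kinase of replication, and MAPRE1 (0.9989). For HELLS they were NUP43 (0.9994), a nuclear pore protein, TOR1AIP1 (0.9990) and PDGFC (0.9988), and for DNMT1 TRIM24 (0.9998), HOXB6 (0.9989) and PVRL3 (0.9985). Those of DNMT3A were STAMBPL1 (0.9956), PFAS (0.9908) and IPO5 (0.9907), those of DNMT3B LENG8-AS1 (0.9842), CDC23 (0.9839) and MAP3K8 (0.9821), and those of UHRF1 UBTD2 (0.9772), NR2C1 (0.9747) and a gene with a clone-based name (0.9738). CDCA7L was most like ADAM17 (0.9979) and FMNL2 (0.9961), and ZBTB24 most like TRIM32 (0.9844), PRRC2A (0.9805) and EIF4BP7 (0.9801). TET2 was most like VWA8 (0.9996), KMT2A (0.9984) and PRLR (0.9978), and TET3 most like NCOA6 (0.9991), TEAD1 (0.9987) and MET (0.9968), genes whose log2 fold changes between -0.11 and 0.16 did not pass the test.

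GGAC, the core of the letters that METTL3 methylates, occurs in the longest transcript of every member. CDCA7 has 10 copies (2.54 per kilobase) and HELLS 12 (2.16), UHRF1 has 36 (8.36) and DNMT1 40 (5.59). The lowest density was that of TET2 (1.87). The median was 3.62 per kilobase over the members and 3.57 over the 15919 tested genes with an annotated transcript, and CDCA7 and HELLS lay below both medians. A count of letters says nothing about whether a site was methylated in these cells.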

How the data were processed

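RNA-seq counts of 3 WT and 3 METTL3-KO HCT116 samples were analysed, with groups and replicate numbers from the labels and no sample left out. The authors prepared libraries with a TruSeq RNA kit, mapped paired reads to hg19 with TopHat v2.0.11 (the version is from the submitters' processing notes) using an Ensembl GRCh37 transcript index, and assigned them to genes with htseq-count (union mode), which drops reads that overlap more than 1 gene. The deposited values are raw counts for 56638 symbols, with the reads not assigned to a gene (28.2% to 30.7% of a sample's total) in rows of their own, which were left out. Strand and feature settings of the counting are not given in the sources used here.

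Genes with fewer than 5 counts in total in both groups were removed (34186), as in the study's methods, which left 22452. METTL3-KO was compared with WT by edgeR's quasi-likelihood test (edgeR 4.0.16, R 4.3.3) with TMM normalization, two-sided, with Benjamini-Hochberg adjustment and a threshold of 0.05. The SE is the size of the log2 fold change over the square root of F. The script was tested on simulated data. Gene positions, lengths and overlaps came from GENCODE v44lift37 on GRCh37 (33514 symbols matched), and promoter windows from RefSeq on GRCh38.p14 (all 10 members matched). The members had 267 to 3703 counts per sample, and counting error is largest for DNMT3B, which had the fewest.

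The members and lists were chosen with earlier results of these data known. Named genes are the members, METTL3, all other methylation and demethylation enzymes, up to 3 genes per list with the largest absolute log2 fold change among those with an adjusted p under 0.05 and a mean log2 CPM that reached 1, and the 3 genes most like each member. Some genes that this rule names are not reported here. Alternatives were DESeq2 1.42.0, RLE normalization, 2 other filters, the replicate block, each sample left out, replicate 3 left out of both groups, and offsets from splines (5 degrees of freedom) of transcript length and GC content fitted on 9402 genes (91.0% of those over a mean log2 CPM of 3), alone and with the block.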

Additional observations from a re-analysis of the deposited data

How the results depend on the processing

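CDCA7, HELLS and DNMT1 were called lower in all 15 fits. Counts of called genes that moved by over 1.5 times and members whose sign turned are given here, and medians of gene lists that turned stand beside those lists. The cause was not tested. With the replicate block, 1719 genes were lower and 1810 higher, 3 members were lower (DNMT3A and DNMT3B lost the call, at -0.32 and -0.34), and 7 listed genes were higher in place of 14. Of the named genes that rose, IDH1 (adjusted p = 0.0659), MBD5 (0.0564), ZBTB4 (0.0580), MBD2 (0.159), KDM2B (0.145) and CXXC4 (0.125) did not pass with the block, and KDM2A did (0.0140). The block with the length and GC offsets left 2775 lower and 2878 higher. The replicate numbers did not pair the samples, since deviations of same-numbered samples correlated at -0.586, -0.390 and -0.784. With replicate 3 left out of both groups, 4823 genes were lower and 4555 higher, 2 members (TET2 and TET3) and 32 listed genes were higher, and ZBTB24 (0.07) and TET2 (0.40) turned positive. With 1 sample left out in turn, 3 to 4 members were lower, 0 to 1 higher, and 10 to 28 listed genes higher, the most without WT replicate 3. In those fits ZBTB24 ran from -0.08 to 0.04 and TET2 from -0.21 to 0.24, positive without WT replicate 3 (0.04 and 0.24) and at 0 and 0.08 without METTL3-KO replicate 3. DESeq2 called 2700 genes lower and 2908 higher.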

Other observations

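Genes whose silencing is tied to DNA methylation were read out as well. Of 40 germline genes with promoters that are methylated in somatic cells, 31 fell under the count minimum, 17 of these with 0 counts in all 6 samples. Reads without a unique alignment were left out of the counts. For a gene with near-identical copies in the genome, 0 counts therefore do not show that it was silent. Which of the listed genes have such copies was not checked. Of the 9 tested, edgeR called 1 lower and 0 higher (adjusted p under 0.05), and the counts were the same at an unadjusted p under 0.05 and with DESeq2. The median log2 fold change of these 9 was 0.02, and between -0.12 and 0.23 in the other fits. The gene called was MAGEA12, a cancer-testis antigen, with 3.72, 4.38 and 3.38 CPM in WT and 1.99, 2.55 and 1.40 CPM in METTL3-KO samples (log2 fold change -0.95, SE 0.208, adjusted p = 0.00502).

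Of 22 imprinted genes, 14 were tested, 4 were lower and 3 higher. IGF2, a growth factor of the imprinted region it shares with H19, rose from 64.5 ± 6.27 to 94.3 ± 1.27 CPM (log2 fold change 0.55, SE 0.0827, adjusted p = 0.000453 in edgeR's test), and PHLDA2 of the neighbouring cluster rose as well (0.50, SE 0.0924, adjusted p = 0.00187). CDKN1C, a cell cycle inhibitor of that cluster, fell (-0.72, SE 0.155, adjusted p = 0.00453). The median log2 fold change of this list was -0.12 over all samples, 0.05 with the filterByExpr filter, 0.14 without WT replicate 3, 0.09 without METTL3-KO replicate 3 and 0.32 with replicate 3 left out of both groups.

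HLTF, a SNF2-family ATPase, was chosen after its values were seen. It lay at 0 to 0.281 CPM in all 6 samples.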
